A study of Mus musculus with 8 samples.

Results

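Cytosolic sulfotransferases are enzymes that place a sulfate group on small molecules, among them steroids, bile acids, thyroid hormone, catecholamines and phenolic drugs, which makes the product more soluble in water and easier to excrete. The sulfate comes from the donor PAPS, which the PAPS synthases Papss1 and Papss2 make from ATP and inorganic sulfate. The liver is a main site of this reaction, and in mouse liver the Sult2a enzymes and Sult3a1 are known to be more abundant in females than in males. The genes described here are Sult2a2, Sult2a4, Sult3a1, Sult1a1, Sult1b1, Sult1c2, Sult1d1, Sult1e1, Sult5a1 and Papss2. They were taken as the array features whose single gene symbol in the platform's annotation is one of these names, and all 10 genes were found, on 14 of the 33653 features with a single symbol, which cover 19087 genes. The family was chosen from measured values, because Sult2a2 and Sult2a4 led the comparisons of vitamin C treated mutants. The values of these genes in those comparisons are therefore a description and not a test.

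Liver total RNA of 9 months old C57Bl/6 mice with a mutant Wrn protein was set against liver RNA of wild type C57Bl/6 mice on 8 two-colour Agilent arrays. Wrn, a DNA helicase, is the mouse counterpart of the gene mutated in Werner syndrome, a human disorder of early ageing. 4 arrays held untreated Wrn mutants and 4 held Wrn mutants treated with vitamin C, and each group used wild type numbers 1 to 4, so both groups share their wild type comparison. The sources used here do not give the dose and length of the treatment, the sex of the mice or the nature of the Wrn mutation. No vitamin C treated wild type mice were analysed here. Mutant RNA carried the dye Cy5 on numbers 1 and 2 and Cy3 on numbers 3 and 4. The series description calls the 4 arrays of a group independent biological replicates.

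The deposited values are centred log ratios of the 2 channels, with the log base not stated and read here as log2. A value of 0 means equal signal in mutant and wild type. The values were taken as already turned so that every array runs mutant over wild type. This direction is a choice and is not settled. It rests on the wild type being listed as the first channel on all arrays and on the series setting mutants against wild type. But the titles of the swapped arrays name the wild type first, so every title names the Cy5 sample first. Read as Cy5 over Cy3, 9 genes were called in untreated and 10 in treated mutants over wild type, against 0 in each as taken. Untreated and treated arrays of opposite dye orientation correlated between -0.22 and 0.02 over all genes as deposited. These correlations would change sign under the other reading. If the values instead ran Cy5 over Cy3, those of numbers 3 and 4 would change sign, and means, counts or ranks under that reading are given beside the results. Array medians lay between -0.01 and 0.00. Pairs of arrays of the same group and dye had correlations between -0.01 and 0.21 over all genes. Only ratios were used, so the level of a gene in liver cannot be given, one gene cannot be ranked above another by level, and liver markers could be checked only for differences. Of 9 hepatocyte markers 6 were measured, and their mean ratio lay between -0.32 and 0.46 on the arrays.

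Several of these genes sit in clusters of near relatives. In the RefSeq order of genes, Sult2a5, Sult2a2, Sult2a1, Sult2a4, Sult2a3, Sult2a6, Sult2a8 and Sult2a7 follow one another on chromosome 7 with no other protein-coding gene between them. Sult3a2 and Sult3a1 are neighbours on chromosome 10, and Sult1b1, Sult1d1 and Sult1e1 on chromosome 5. Features for one member of such a cluster may bind RNA of another, so a ratio given for Sult2a2 or Sult2a4 may include RNA of the paralogs. Probe sequences were not used here.

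RefSeq promoters, running from 250 bases before to 50 bases after the start of the gene on build GRCm38.p6, were found for 9 of the 10 genes. None was found for Sult2a2. The 3 printed are those of Sult2a4, Sult3a1 and Sult1e1, the genes with a promoter whose ratios the results below turn on most. Each was searched on both strands for AGGTCA and AGTTCA, which are core letters of sites bound by nuclear receptors, and for TTCNNNGAA, the letters bound by STAT5, with capitals marking a match as it reads on the printed strand. The Sult2a4 promoter lies at chr7:13989539-13989838 on the minus strand, that of Sult1e1 at chr5:87591562-87591861 on the minus strand, and that of Sult3a1 at chr10:33857472-33857771 on the plus strand.
Sult2a4: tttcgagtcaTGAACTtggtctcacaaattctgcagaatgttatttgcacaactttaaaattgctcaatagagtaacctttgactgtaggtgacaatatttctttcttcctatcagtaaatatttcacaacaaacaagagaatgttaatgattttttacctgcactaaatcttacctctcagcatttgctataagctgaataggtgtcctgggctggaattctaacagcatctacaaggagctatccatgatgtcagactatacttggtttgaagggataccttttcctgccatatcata
Sult1e1: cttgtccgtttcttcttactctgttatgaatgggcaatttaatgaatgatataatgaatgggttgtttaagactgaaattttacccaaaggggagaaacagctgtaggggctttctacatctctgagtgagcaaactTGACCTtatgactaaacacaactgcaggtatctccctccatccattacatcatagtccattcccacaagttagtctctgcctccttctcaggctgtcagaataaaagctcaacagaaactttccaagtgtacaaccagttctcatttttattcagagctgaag
Sult3a1: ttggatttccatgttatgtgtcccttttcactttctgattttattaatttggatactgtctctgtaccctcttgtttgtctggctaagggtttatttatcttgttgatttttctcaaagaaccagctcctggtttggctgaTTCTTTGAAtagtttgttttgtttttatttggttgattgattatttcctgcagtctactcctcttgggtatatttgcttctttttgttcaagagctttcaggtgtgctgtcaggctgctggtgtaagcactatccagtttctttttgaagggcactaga
The Sult2a4 promoter held 1 AGTTCA, 240 bases before the start, and neither of the other motifs. That of Sult1e1 held 1 AGGTCA, 113 bases before the start, and that of Sult3a1 held 1 TTCNNNGAA, 109 bases before it. Among all 32851 promoters of the same length, 16.3% held AGGTCA, 14.0% held AGTTCA and 8.3% held TTCNNNGAA, and a match describes the letters only. Among the other members, the promoters of Sult1b1 (AGGTCA and AGTTCA), Sult1d1 (AGTTCA) and the second start of Papss2 (AGGTCA) held a match, and those of Sult1a1, Sult1c2 and Sult5a1 held none. The neighbouring promoters of Sult2a3, Sult2a5 and Sult2a6 held AGTTCA at other distances, 184, 161 and 205 bases before their starts. That of Sult2a6 held it again at 14 bases. In Sult2a3 and Sult2a5 the letters printed after the match, tggtctcacaa, were the same as in Sult2a4. Of the 2 starts listed for Sult2a8, the first held no match and the second held AGGTCA and AGTTCA, each at 2 places. In end-to-end alignment the Sult2a4 promoter shared 65.6% of columns with that of Sult2a6 and 63.7% with that of Sult2a3. It shared 53.6% with the first of Sult2a8 and 53.5% with that of Sult2a5. The promoters of Sult3a1 and Sult3a2 shared 49.3%. Columns with gaps are counted, also at the ends, so a shift between 2 starts lowers the share. With Sult2a5, 204 bases were the same over 381 columns, and with Sult2a8, 187 over 349. These shares therefore do not rank the promoters by likeness.

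**Figure D1:**
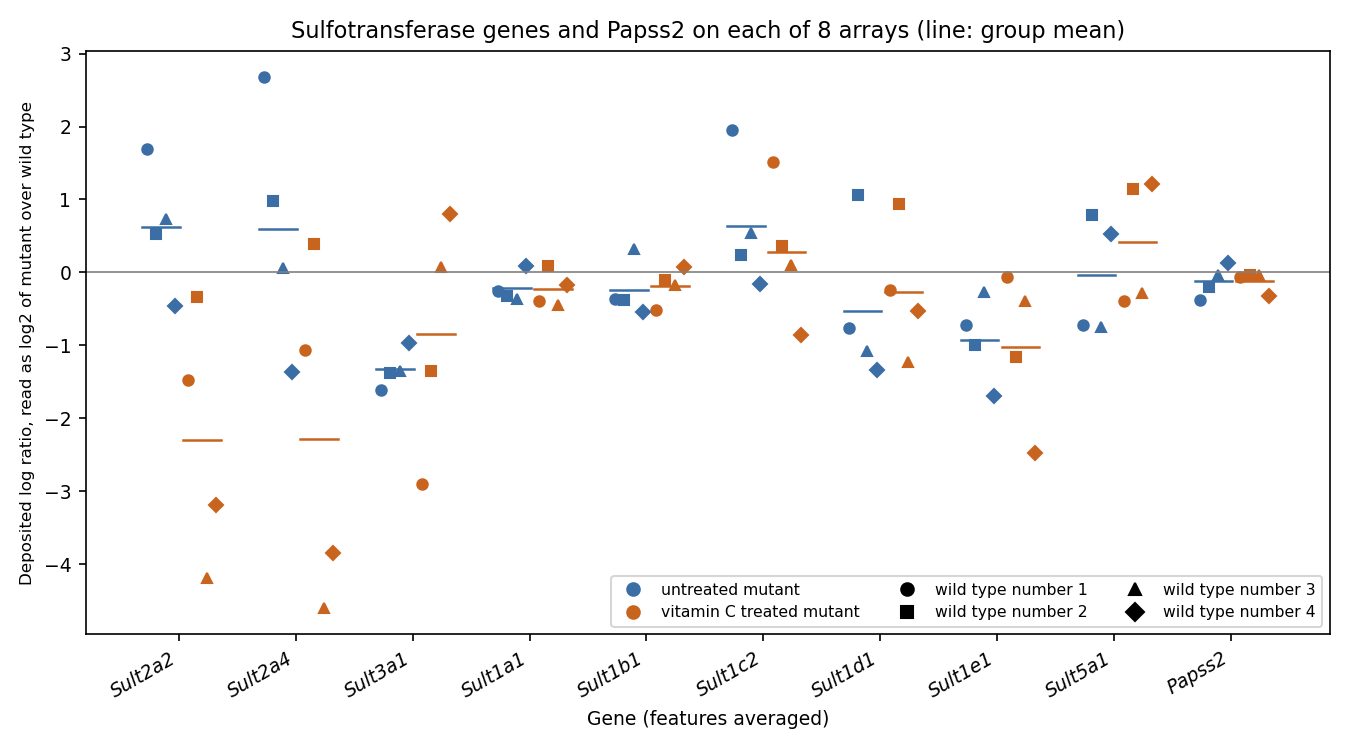
Deposited log ratio (vertical axis, read as log2 of mutant over wild type) of the 10 genes (horizontal axis) on each of 8 arrays. Blue marks untreated and orange vitamin C treated Wrn mutants, the marker shape gives the wild type number and the short line is the group mean of 4 arrays. Sult2a2 and Sult2a4 reach the lowest values, -4.19 and -4.60, both on treated number 3, while Sult1a1, Sult1b1 and Papss2 stay between -0.54 and 0.33.

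Sult2a2 and Sult2a4 encode hydroxysteroid sulfotransferases, which act on steroids such as dehydroepiandrosterone and on bile acids. On numbers 1 to 4 of the untreated mutants, Sult2a2 stood at 1.69, 0.53, 0.73 and -0.46 against wild type. On the same numbers of the treated mutants it stood at -1.47, -0.34, -4.19 and -3.19. All 4 treated arrays lay below 0 and 3 of 4 untreated arrays above it, and the groups overlapped, since untreated number 4 lay below treated number 2. The mean was 0.62 ± 0.88 (SD, n = 4) in untreated and -2.30 ± 1.72 (SD, n = 4) in treated mutants, the latter 4.91-fold below wild type. Within each number the treated array was the lower one, with treated minus untreated at -3.16, -0.87, -4.92 and -2.73 on numbers 1 to 4. The difference between treated and untreated mutants was -2.92 with a 95% interval of -4.02 to -1.82, which is 7.57-fold. These are the values that chose the gene, and none passed limma's test over all genes.

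For Sult2a4 the treated arrays had the same order as for Sult2a2, while untreated numbers 2 and 3 changed places. Its ratios were 2.68, 0.98, 0.07 and -1.36 on untreated numbers 1 to 4 and -1.07, 0.39, -4.60 and -3.85 on treated numbers 1 to 4. Treated number 2 was the one treated array above 0, and the groups again overlapped. The group means were 0.59 ± 1.69 (SD, n = 4) and -2.28 ± 2.34 (SD, n = 4), and treated minus untreated within numbers was -3.74, -0.59, -4.66 and -2.48. The mean difference of -2.87 had a 95% interval of -4.04 to -1.70 and is 7.31-fold. Of the 10 genes, Sult2a2 and Sult2a4 were the 2 that stood lower on the treated array of all 4 numbers as deposited. Under the other reading the treated array would be the higher one on numbers 3 and 4. Nothing is read from this count, since both were chosen for these values and no share over all genes is given. Over the 8 arrays their ratios had a Pearson r of 0.964, which describes 2 neighbouring paralogs measured on the same arrays.

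Each of these genes had 2 features, and as deposited all 4 features placed the treated array below the untreated one on every number. For Sult2a2, feature 11396 stood at -2.74, -0.34, -5.38 and -3.93 on treated numbers 1 to 4, and feature 9370 at -0.20, -0.34, -3.005 and -2.46. The features of Sult2a4 were furthest apart on number 1 of the treated mutants, at 0.10 and -2.24. Both features of each gene thus placed treated numbers 3 and 4 lowest, but they gave different sizes, with means of -3.09 and -1.50 for Sult2a2 and -1.91 and -2.65 for Sult2a4 in treated mutants. The difference from untreated mutants ranged over the 4 features from -2.25 ± 0.47 to -3.59 ± 0.58 (estimate ± SE from the fit over all features).

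**Figure D2:**
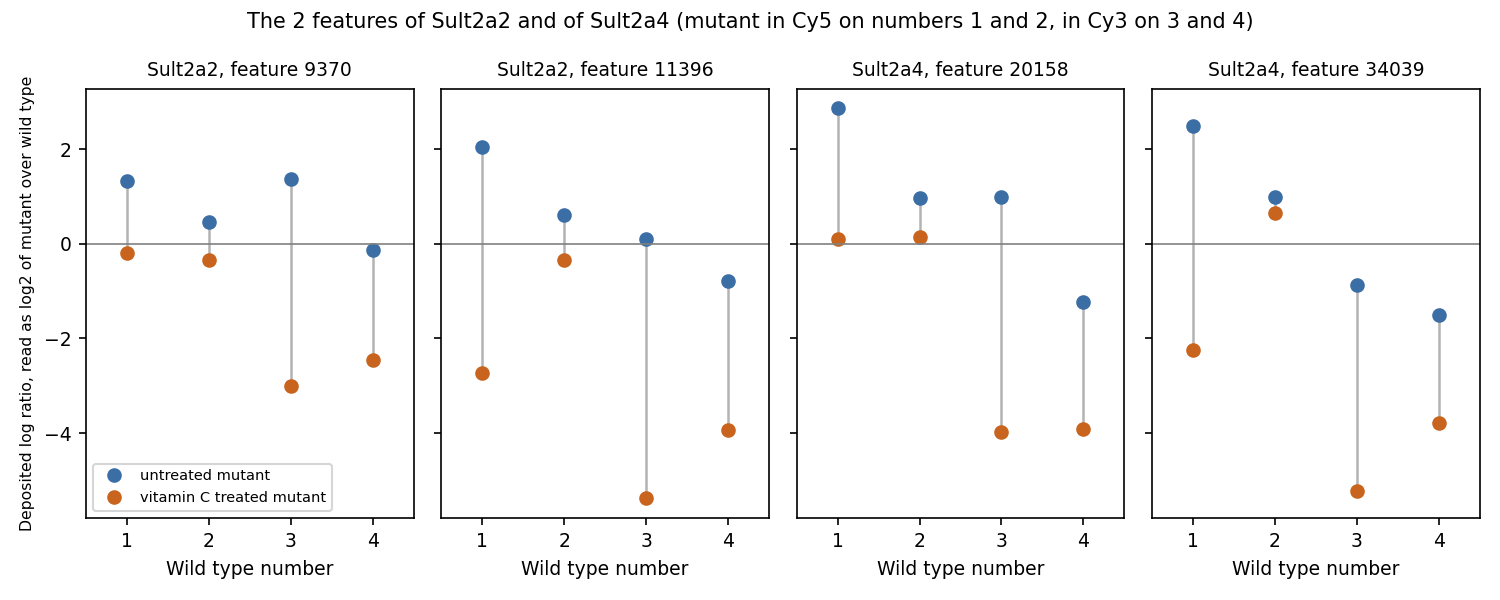
Log ratio (vertical axis, read as log2 of mutant over wild type) of the 4 features of Sult2a2 and Sult2a4 by wild type number (horizontal axis), with a grey line joining the untreated (blue) and treated (orange) array of a number. The treated point is the lower one in all 16 pairs, by least on number 2, and the lowest points are on number 3. The pairs are 4 features on the same 8 arrays and not separate animals. If the values ran Cy5 over Cy3, the treated point would be the higher one on numbers 3 and 4.

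The ratios of both genes to wild type moved with the number and the dye. For Sult2a2 the mean of the treated arrays was -0.90 where mutant RNA carried Cy5 and -3.69 where it carried Cy3, and for Sult2a4 it was -0.34 and -4.22. The untreated means also fell from Cy5 to Cy3, from 1.11 to 0.14 for Sult2a2 and from 1.83 to -0.65 for Sult2a4. The dye coefficient of the fit was 0.94 ± 0.24 (SE) for Sult2a2 and 1.59 ± 0.26 (SE) for Sult2a4, the latter with an adjusted p of 0.0203 in limma. Since each dye orientation holds its own wild type numbers, dye and numbers cannot be told apart. The deposited values also had a median of 15 digits on numbers 1 and 2 and of 6 digits on numbers 3 and 4, in both groups. Whether the 2 orientations were processed differently is not stated and was not tested. Under the reading as Cy5 over Cy3 the treated means would be 1.39 for Sult2a2 and 1.94 for Sult2a4, and the untreated means 0.49 and 1.24. The difference between treated and untreated mutants would then be 0.91 for Sult2a2 and 0.70 for Sult2a4, so the direction of both depends on the reading taken. On numbers 1 and 2, whose sign is the same under both readings, the treated array was lower for each gene. Leaving out both arrays of a number in turn moved the difference of Sult2a2 between -2.25 (number 3 left out) and -3.60 (number 2 left out), and that of Sult2a4 between -2.27 and -3.63. The untreated estimates rested more on single arrays. That of Sult2a2 was 0.20 without untreated number 3 and 1.04 without untreated number 2. That of Sult2a4 was 0.16 without untreated number 3, 0.39 without number 1 and 1.07 without number 2.

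Sult3a1 encodes an enzyme known for sulfating amines, and its ratios had another order. In untreated mutants it stood at -1.61, -1.38, -1.35 and -0.96 on numbers 1 to 4, which is below wild type on all 4 arrays with a mean of -1.33 ± 0.27 (SD, n = 4), or 2.51-fold lower. In treated mutants the values were -2.90, -1.35, 0.07 and 0.80, below 0 on numbers 1 and 2 and above it on numbers 3 and 4. The treated mean of -0.85 ± 1.63 (SD, n = 4) was spread over a range wider than that of the untreated arrays. Without treated number 1 the estimate of the fit, which keeps the dye term, was -0.31. The untreated estimate had a 95% interval of -2.09 to -0.56 and an adjusted p of 0.456 in limma, so it did not pass. Treated minus untreated was -1.29, 0.03, 1.41 and 1.76 on numbers 1 to 4, and the mean difference of 0.48 had an interval of -0.60 to 1.56. Read as Cy5 over Cy3 the untreated mean would be -0.17, the treated mean -1.28 and their difference -1.11.

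The neighbouring Sult3a2 was measured by 1 feature. It stood at -0.24, -0.78, -1.39 and -2.47 on untreated numbers 1 to 4, and at -2.97, -1.05, -0.70 and -0.37 on treated numbers 1 to 4. All 8 arrays lay below 0, with means of -1.22 ± 0.96 and -1.27 ± 1.16 (SD, n = 4 each), and neither passed the test. That all lay below 0 holds for the reading as mutant over wild type. Read as Cy5 over Cy3, Sult3a2 would have an untreated mean of 0.71, a treated mean of -0.74 and a difference of -1.45. On treated number 1 both Sult3a genes were at their lowest, -2.90 and -2.97, and on treated number 4 both were at their highest treated value.

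**Figure D3:**
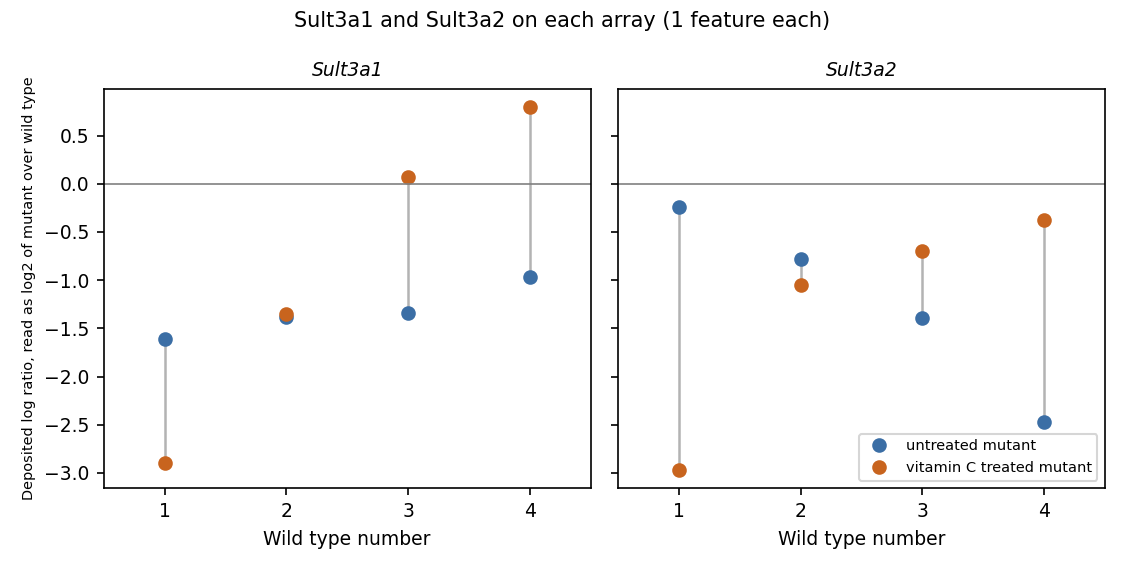
Log ratio (vertical axis, read as log2 of mutant over wild type) of Sult3a1 and Sult3a2 by wild type number (horizontal axis), untreated in blue and vitamin C treated in orange. The treated value lies far below the untreated one on number 1 and above it on numbers 3 and 4 for both genes, and Sult3a2 stays below 0 throughout.

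Sult1e1 encodes the estrogen sulfotransferase, which inactivates estradiol and estrone. It was below wild type on all 8 arrays, at -0.72, -0.995, -0.27 and -1.69 in untreated and -0.07, -1.16, -0.39 and -2.47 in treated mutants. Number 4 was lowest and number 3 or number 1 highest in both groups. The means were -0.92 ± 0.60 and -1.02 ± 1.07 (SD, n = 4 each), 1.89-fold and 2.03-fold below wild type, with adjusted p of 0.588 and 0.664 in limma. Treated and untreated mutants differed by -0.10, with an interval of -1.18 to 0.98, or of -0.607 to 0.405 with the number as a block. Number 4 weighed on these values, since the treated estimate was -0.54 without treated number 4 and -0.47 without both arrays of number 4, and the untreated estimate was -0.60 without both. Read as Cy5 over Cy3 the means would be 0.06 and 0.41.

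Sult1d1, which acts on catecholamines, Sult1c2, which acts on phenols, and Sult5a1, whose substrate is not settled, varied between numbers in the same way in both groups. For Sult5a1 the ratios were -0.72, 0.79, -0.75 and 0.52 in untreated and -0.40, 1.15, -0.28 and 1.21 in treated mutants. Numbers 2 and 4 were high and numbers 1 and 3 low in each group. Of the variance around the group means, 99.0% lay between the numbers. Sult1c2 was highest on number 1, at 1.96 untreated and 1.52 treated, and lowest on number 4, at -0.16 and -0.85, with 96.7% of that variance between numbers. Sult1d1 stood at 1.07 and 0.94 on number 2 and between -1.34 and -0.24 on the other numbers, with 94.3% between numbers. Under the other reading the untreated and treated means of Sult1d1 would be 0.68 and 0.62 in place of -0.53 and -0.27. Those of Sult5a1 would be 0.08 and -0.05 in place of -0.04 and 0.42, and those of Sult1c2 would be 0.46 and 0.66 in place of 0.64 and 0.28.

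With Sult1e1, at 88.4%, these made 4 of the 10 genes with a share of 85% or more between wild type numbers, a share that 21.2% of all genes reached. The shares are of the variance around the group means. They leave out the difference between treated and untreated mutants, which was largest for Sult2a2 and Sult2a4. The median share over all genes was 63.9%. With the other reading, Sult1a1 and Sult3a1 would join these 4, making 6 of the 10 genes where 16.2% of all genes reach that share, and the median of all genes would be 58.9%. The arrays of a number share their wild type RNA by label and also their dye orientation, and which of the animals or dyes carries the pattern was not tested. Sult5a1 had the smallest spread of within-number differences among these 4, 0.46 ± 0.17 (mean ± SD, n = 4), above 0 on all numbers. With the number as a block its interval was 0.15 to 0.78 and its adjusted p in limma was 0.757, so it did not pass. Without the block the interval was -0.65 to 1.57. For Sult5a1 the mean difference would be -0.12 read as Cy5 over Cy3, with numbers 1 and 2 above 0 and numbers 3 and 4 below. Sult2a2, at 63.0%, was near the median, and Sult2a4 stood at 81.3%. Under the other reading both would lie below it, at 22.3% and 22.5%.

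**Figure D4:**
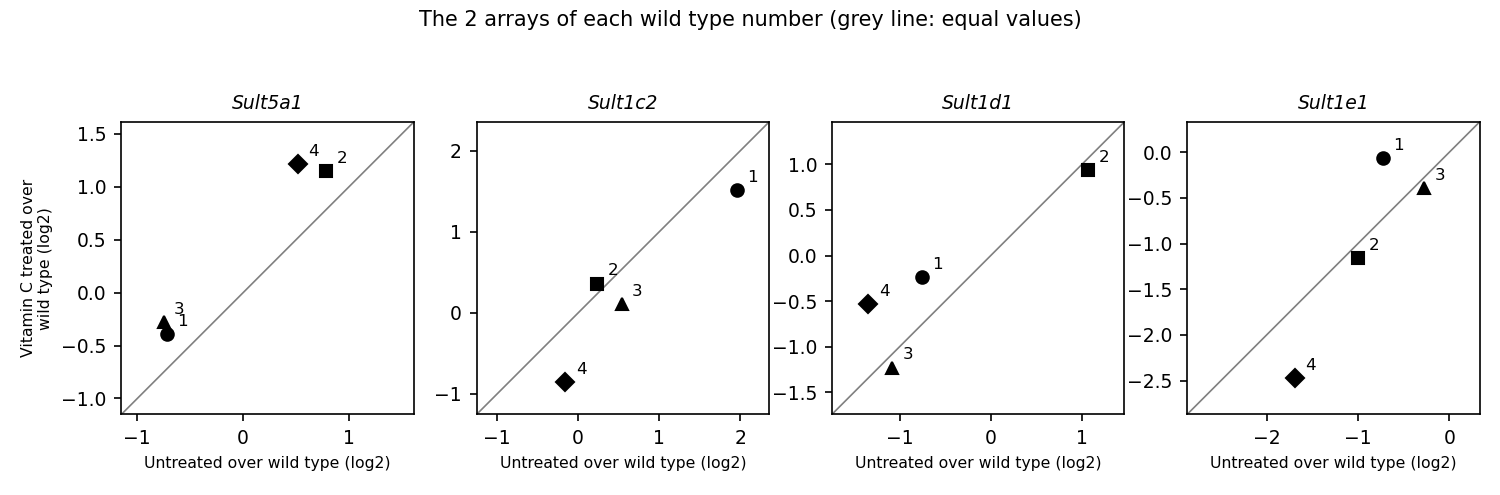
Log ratio of vitamin C treated mutants (vertical axis, log2) against that of untreated mutants (horizontal axis, log2) for Sult5a1, Sult1c2, Sult1d1 and Sult1e1, with the wild type number beside each point and a grey line at equal values. The points lie along the line, so the 2 arrays of a number carry similar ratios while the numbers spread from -2.47 to 1.96.

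The remaining genes had small ratios when the features of a gene were averaged. Sult1a1, the main phenol sulfotransferase, lay between -0.45 and 0.09 on the 8 arrays, below 0 on 6 of them. Sult1b1, which acts on thyroid hormone, lay between -0.54 and 0.33, and its 2 features had an r of -0.01 over the arrays, so its average rests on features that did not vary together. Feature 15577 lay below 0 on all 8 arrays, down to -1.21, with untreated and treated means of -0.54 and -0.38. Those of feature 37280 were 0.06 and 0.02. Read as Cy5 over Cy3 the means of feature 15577 would be -0.15 and -0.01. Papss2 lay between -0.38 and 0.14, its treated mean of -0.11 would be 0.07 read as Cy5 over Cy3, and treated minus untreated was 0.00 with an interval of -0.34 to 0.35. For Sult1a1 the same difference was -0.02 with an interval of -0.41 to 0.37, and for Sult1b1 it was 0.06 with an interval of -0.39 to 0.51.

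Across the 10 genes no comparison gave a call at an adjusted p of 0.05 in limma, where 0% of all genes were called, and the smallest adjusted p of a member was 0.456 for untreated mutants over wild type, 0.363 for treated mutants over wild type and 0.974 for treated over untreated mutants. In untreated mutants 3 genes had means above 0 and 7 below, with a median of -0.16 against -0.01 for all genes. At an unadjusted p under 0.05, Sult1e1 and Sult3a1 were lower and no member was higher, where 4.65% of all genes were lower and 3.14% higher. In treated mutants 2 means lay above 0 and 8 below, with a median of -0.25 against 0.00 for all genes. Sult2a2, Sult2a4, Sult1e1 and Sult3a1 were lower at that threshold, where 3.37% of all genes were lower and 3.73% higher. Between treated and untreated mutants 5 genes lay on each side, with a median of -0.01 against 0.02, and Sult2a2 and Sult2a4 were lower at that threshold, where 1.91% of all genes were lower and 2.37% higher. The treated and untreated values of a gene did not overlap for 2.24% of all genes and for none of the 10. If the values ran Cy5 over Cy3, 6, 7 and 7 of the 10 genes would lie above 0 in these 3 comparisons in place of 3, 2 and 5. Since the members were chosen with these values known, nothing is read from the counts. An SD of 0.5 or more over the 8 arrays was reached by 7 of the 10 genes and by 10.3% of all genes. The other reading would also give 7 of 10, against 8.76% of all genes. Nothing is read from this count either, since Sult2a2 and Sult2a4 were chosen for their values on these arrays.

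**Figure D5:**
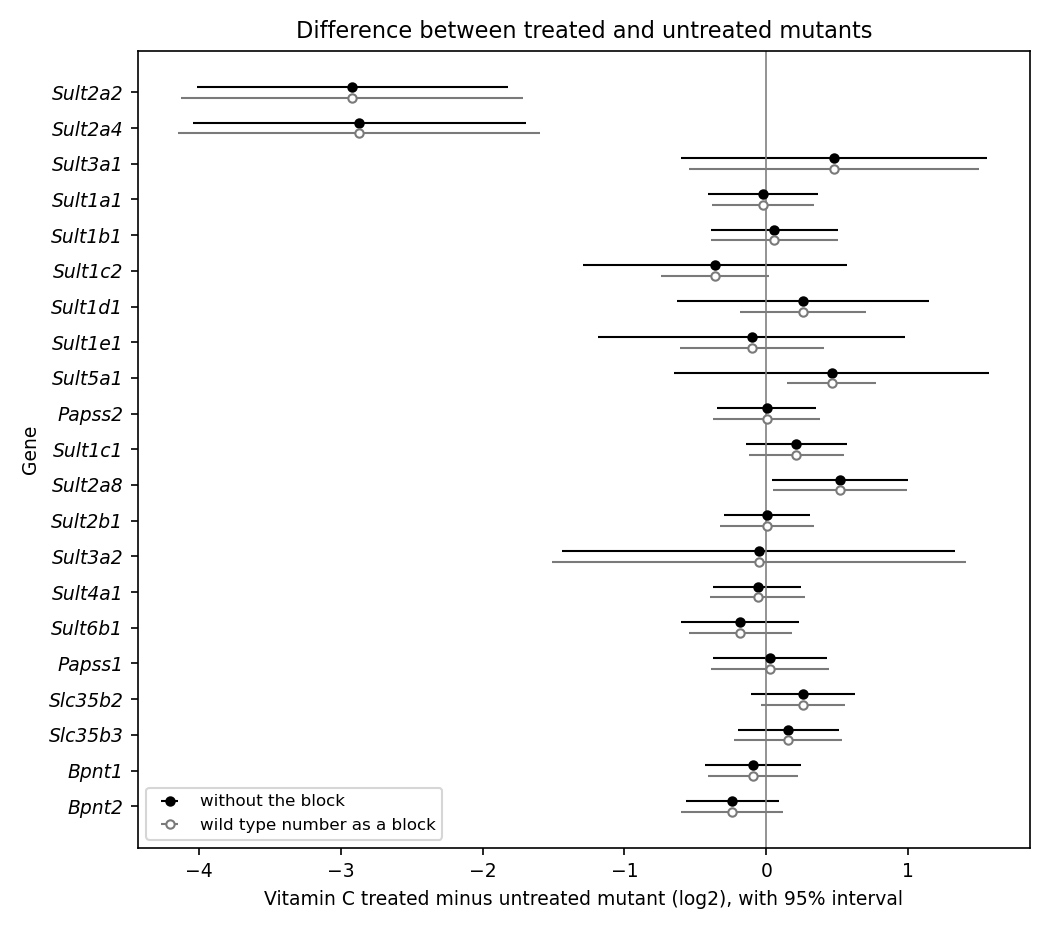
Treated minus untreated Wrn mutants (horizontal axis, log2) for the 10 genes, the other measured family genes and the PAPS genes (vertical axis), as estimate and 95% interval without (filled) and with (open) the wild type number as a block. Sult2a2 and Sult2a4 stand at -2.92 and -2.87, while the other estimates lie between -0.36 and 0.52.

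Of 12 further sulfotransferase genes, 6 were measured. Sult2a8, of the same cluster as Sult2a2, had ratios of another order. It stood at 0.45, 0.03, -0.49 and -0.90 in untreated and 0.50, 0.18, 0.21 and 0.29 in treated mutants, so that the treated array was the higher one on all 4 numbers, by 0.52 on average with an interval of 0.04 to 1.00 and an adjusted p of 0.974. Read as Cy5 over Cy3 that difference would be -0.42. Sult1c1, Sult2b1, Sult4a1 and Sult6b1 had group means between -0.21 and 0.07.

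The other genes of PAPS supply and removal had group means between -0.31 and 0.25. Papss1, the other PAPS synthase, had means of 0.22 in untreated and 0.25 in treated mutants. The Golgi PAPS transporters Slc35b2 and Slc35b3 lay between -0.21 and 0.06 in group mean, as did Bpnt1, a phosphatase that removes the spent donor, between -0.03 and 0.06. Bpnt2, the Golgi counterpart of Bpnt1, was at -0.07 in untreated and -0.31 in treated mutants. Of these 5 genes and the 6 further sulfotransferase genes, none passed the test in any comparison.

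Inorganic sulfate comes largely from the oxidation of cysteine, and 15 of 15 listed genes of its production and uptake were measured. None passed in any comparison. In untreated mutants 6 lay above 0 and 9 below, with a median of -0.12 against -0.01 for all genes, and the members of smallest p were Got1, a cytosolic transaminase, at -1.05 ± 0.30 (estimate ± SE), Cth, which makes cysteine, at -0.51 ± 0.16 and Tst, the thiosulfate sulfurtransferase, at -0.34 ± 0.12. In treated mutants 5 lay above 0 and 10 below, with Cth at -0.61 ± 0.16 and Got1 at -0.87 ± 0.30. Between treated and untreated mutants 9 lay above and 6 below, with a median of 0.08 against 0.02. Turned to Cy5 over Cy3, the medians of this list would be -0.01, -0.07 and -0.01 in the 3 comparisons, with Cth at 0.56 and 0.55, Got1 at -0.12 and 0.16 in untreated and treated mutants, and Tst at 0.02 in untreated ones. Of 15 listed sulfatases, their activators and tyrosine sulfotransferases, 13 were measured and none passed, with medians between -0.04 and 0.04, or between -0.05 and 0.06 under the other reading. Arsa, a lysosomal sulfatase, had the smallest p in treated mutants, at 0.46 ± 0.13, which would be 0.03 under the other reading.

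Receptors and factors known to act on sulfotransferase genes were listed as 23 genes, of which 19 were measured and none passed. In treated mutants 12 lay above 0 and 7 below, with a median of 0.04 against 0.00, and read as Cy5 over Cy3 it would be 8 above and 11 below with a median of -0.06. Bcl6, a transcriptional repressor with a known role in the sex bias of liver genes, had ratios of 2.20, 0.57, 0.52 and 0.90 in untreated and 2.85, 1.56, 1.13 and 1.30 in treated mutants, above 0 on all 8 arrays. Onecut1, a hepatocyte transcription factor, had means of -0.50 and -0.78, and Nr1i2, the pregnane X receptor, stood at 0.34 ± 0.11 in treated mutants. Rora, a nuclear receptor known to act on Sult1e1 in mouse liver, stood at 0.52 ± 0.11 in untreated mutants, and treated minus untreated was -0.42 ± 0.15. Under the other reading the treated means would be 0.49 for Bcl6, -0.20 for Onecut1 and -0.28 for Nr1i2, and treated minus untreated 0.22 for Rora.

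Other genes with sex-biased expression in mouse liver were counted because Sult2a2 and Sult3a1 belong to that class. Of 14 female-predominant genes that are not sulfotransferases, 13 were measured, and none passed. Between treated and untreated mutants 10 were lower and 3 higher, with a median of -0.40 against 0.02 for all genes. Their mean on numbers 1 to 4 was 0.55, 0.35, 0.09 and -0.38 in untreated and -0.16, 0.23, -0.83 and -0.84 in treated mutants. A1bg, a secreted plasma protein gene, stood at 1.59, 0.93, 0.50 and 0.91 in untreated and -0.57, 0.91, -1.15 and -0.74 in treated mutants, and Cyp3a41a, a steroid-metabolising cytochrome P450 gene, differed by -1.62 ± 0.46. Of 14 male-predominant genes 12 were measured, 10 of them higher and 2 lower in treated than in untreated mutants, with a median of 0.16, and none passed. Mup3, a major urinary protein gene, differed by 1.10 ± 0.24, Susd4 by 1.11 ± 0.24 and the fatty acid elongase gene Elovl3 by 1.15 ± 0.30. Both counts rest on the direction taken. In the Cy5 over Cy3 reading, 6 female-predominant genes would be lower and 7 higher in treated than in untreated mutants, with a median of 0.03, and 8 male-predominant genes would be lower and 4 higher, with a median of -0.06. The differences would then be 0.28 for A1bg, 0.84 for Cyp3a41a, -0.15 for Mup3, 0.05 for Susd4 and -0.17 for Elovl3.

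Sex chromosome transcripts were read beside these values, because the sex of the mice is not given. Xist, expressed from the inactive X chromosome of females, lay between -0.997 and 0.78 on the 8 arrays, and Eif2s3y, Kdm5d and Uty of the Y chromosome between -0.70 and 0.22. Xist stood at -0.997 and -0.52 on treated numbers 3 and 4, the arrays on which Sult2a2 was lowest, and its part in the result was not tested. Its 4 features differed, at -0.43, -1.465, 0.57 and -0.77 on treated number 4 and between -1.80 and -0.19 on treated number 3. Read as Cy5 over Cy3 the treated mean of Xist would be 0.67 in place of -0.09. Treated minus untreated would be 0.60 in place of -0.37. Cell type markers also moved between numbers. The mean of 9 of 10 listed Kupffer cell and macrophage markers was 1.03, 0.87, -1.80 and 0.42 on untreated numbers 1 to 4 and 1.04, 1.05, -1.51 and 2.17 on treated ones. The 6 hepatocyte markers averaged 0.46, 0.29, -0.18 and -0.27 in untreated and 0.24, 0.20, -0.23 and -0.32 in treated mutants. Between treated and untreated mutants 8 Kupffer cell and macrophage markers were higher and 1 lower, with a median of 0.575. Read as Cy5 over Cy3, 0 would be higher and 9 lower, with a median of -0.405. For hepatocyte markers 2 were higher and 4 lower, with a median of -0.19, and turned it would be 1 and 5, with a median of -0.10. In whole liver RNA, fewer cells of a type and less RNA per cell cannot be told apart, and the part of these markers in the sulfotransferase ratios was not tested.

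The genes whose ratios ran most like the mean of Sult2a2 and Sult2a4 were ranked by Pearson r over the 8 arrays among 1963 genes with an SD of at least 0.5, as a description over arrays that share wild type RNA and dyes. The highest were Cyp3a41a at 0.955, Tafa2 at 0.926, Esco1 at 0.923, A1bg at 0.918, Chic1 at 0.915 and Cdca7 at 0.900. Cyp3a41a stood at -0.97, 0.37, -3.61 and -2.02 on treated numbers 1 to 4, with number 3 lowest and number 2 above 0, as for Sult2a4. The lowest were Lrrc72 at -0.965, Ces3b at -0.963, Pxmp4 and Olfr143 at -0.930, Mybpc1 at -0.916 and Vmn2r90 at -0.915. The ranking depends on the reading. With values turned to Cy5 over Cy3, 1665 genes would have such an SD, and 3 of the 12 genes would stay among the 6 highest and 6 lowest, namely Tafa2 at 0.946, Cyp3a41a at 0.938 and Ces3b at -0.896. Ces3b, a liver carboxylesterase gene, stood at 0.20, -0.15, 1.09 and 0.76 on treated numbers 1 to 4, highest on the array where Sult2a2 was lowest.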

How the data were processed

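Per the labels, total liver RNA was hybridised to 2-colour Agilent arrays. The authors deposited a log ratio per feature for 45220 features, read here as log2, with the base not stated. The submitters' processing notes name limma without saying what it did. The sources used here do not give background correction or normalization. The number of arrays limits the precision. Of the features, 33653 had a single symbol, 56 several and 11511 none in the platform table, and features of a symbol were averaged into 19087 genes. limma 3.58.1 in R 4.3.3 fitted lmFit and eBayes over the 8 arrays jointly, with 1 term per group and 1 for dye orientation, leaving 5 residual degrees of freedom, and Benjamini-Hochberg adjusted p over all genes. SEs are moderated and leave out the dye difference, so they can be smaller than the SD implies. The script was tested on simulated data. Members, gene lists and the direction of the ratios were chosen with earlier results of these data known. All members and all measured family and PAPS genes are named, and from other lists at most the 3 genes of smallest p per comparison. Both arrays of a number name the same wild type number. Their deviations from group means correlated at 0.381, 0.324, 0.514 and 0.341, against -0.292 to 0.127 for other pairs. Differences within numbers are therefore listed, but the main fit held no term for the number. Its intervals and adjusted p do not use the pairing, except where a block is named. Alternatives covered the reading of the ratios, dye term, replicate block, feature summary, scaling, robust variance, arrays left out and a filter on variance. The other reading was carried to the gene lists, the shares between numbers and the ranking by likeness after the data were seen. Promoters were aligned with Biopython 1.88.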

Additional observations from a re-analysis of the deposited data

Results flagged for a closer look

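Papss2 in treated mutants had 1 array apart from the others: replicate 4 stood at -0.329 (log2), while the other 3 arrays lay between -0.059 and -0.033. The gap exceeded Dixon's 95% critical value for 4 samples. Among the 20 groups of 4 arrays checked, chance gives about 1 such case in 20. The 2 features of Papss2 stood at -0.19 and -0.47 on that array.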

How the results depend on the processing

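With all 8 arrays no gene and no member was called in any of the 3 comparisons. Read as Cy5 over Cy3, 9 genes were called for untreated and 10 for treated mutants over wild type, none of them members, and 3, 7 and 8 of the 10 members had the opposite sign in untreated over wild type, treated over wild type and treated over untreated. For untreated mutants over wild type, leaving out both arrays of number 2 gave 1 gene and of number 4 gave 15 genes. For treated mutants over wild type, the counts were 6, 1 and 8 without both arrays of number 2, 3 and 4, and 0 to 3 when 1 array was left out, with 3 without treated replicate 2. Testing only the genes with an SD above the median gave 6 genes, with 2 members among them, Sult2a2 at -2.30 and Sult2a4 at -2.28 (limma adjusted p of 0.0228 each). That filter uses the values themselves and tests fewer genes. No alternative called a gene between treated and untreated mutants. The replicate block on wild type number changed no call, with Sult2a2 at -2.92 and an adjusted p of 0.757 for treated over untreated mutants. Scaling turned 1 member in untreated over wild type and 1 in treated over untreated, both near 0. The ratios carry no intensities, so no filter on dim or saturated features was possible.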
